A study of Mus musculus with 6 samples.

Results

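Transcript levels of the subunits of oxidative phosphorylation were read on 6 Affymetrix Mouse430_2 arrays, each hybridised with RNA of 1 mouse heart. The subunits were taken by symbol from the platform annotation: symbols starting with Nduf and a letter a, b, c, s or v and a number, Sdha to Sdhd, and symbols starting with Uqcr, with Cox4 to Cox8 and a letter, or with Atp5. Only probe sets annotated to that gene alone were used, and a gene was read from its probe set of highest mean over the 6 arrays. This gave 81 of the 18193 genes with such a probe set: 35 of complex I, 4 of complex II, 8 of complex III, 17 of complex IV and 17 of complex V.

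The hearts came from mice of the strain C57B6, 3 of them wild-type and 3 labelled as EphB4 mutant. The product of Ephb4 is an Eph receptor found mainly on endothelial cells, where it binds ephrin-B2. For these mice the sources used here give neither age nor sex, and they do not say what kind of mutation Ephb4 carries. The descriptions of wild-type hearts 1 and 2 and of mutant hearts 1 and 2 begin with the letters eI, and those of wild-type 3 and mutant 3 with eM, a difference that the labels leave unexplained. All values below are log2 intensities, and differences are differences of log2 intensity.

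Oxidative phosphorylation takes place in the inner mitochondrial membrane. Complexes I and II pass electrons from NADH and succinate to ubiquinone, complex III hands them to cytochrome c, complex IV passes them to oxygen, and complex V uses the resulting proton gradient to make ATP. Heart muscle depends on this pathway, and several subunits of complex IV come in an isoform of heart and skeletal muscle and an isoform found in most tissues. All 81 genes taken by the symbol rule are nuclear genes.

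Of the 81 genes, 79 passed the filter on dim probe sets, which left out the lowest 40% of probe set means (below 5.38). The exceptions were Cox7b2, a complex IV isoform known from testis, at 4.36 to 5.29, and Ndufb4, an accessory subunit of complex I, at 4.81 to 5.53. Several probe sets named the same subunit for 48 of the 81 genes. Levels of different probe sets are not compared here, since each binds its target with its own strength.

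The arrays were alike in overall level, with medians between 5.89 and 6.01. Beta-actin control probes at the 3' end of the transcript exceeded those at the 5' end by 0.28 to 0.41 in the 4 eI hearts, 0.51 in wild-type 3 and 0.77 in mutant 3. Ephb4 read 7.83 to 8.20 in wild-type and 7.93 to 8.14 in mutant hearts, so that its level did not separate the groups; whether the probes lie in a mutated stretch is not given. The X-inactivation transcript Xist read 11.51 to 12.33 in the wild-type hearts, 11.75 in mutant 2, and 6.73 and 6.78 in mutants 1 and 3, which read the Y-linked gene Eif2s3y at 9.56 and 9.58, against 3.49 to 3.79 in the other hearts. The tissue label was borne by heart muscle genes: all 20 cardiomyocyte markers listed passed the filter, and their summed level (the log2 of the summed intensities) was 18.02 to 18.12 in the 6 hearts.

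**Figure D1:**
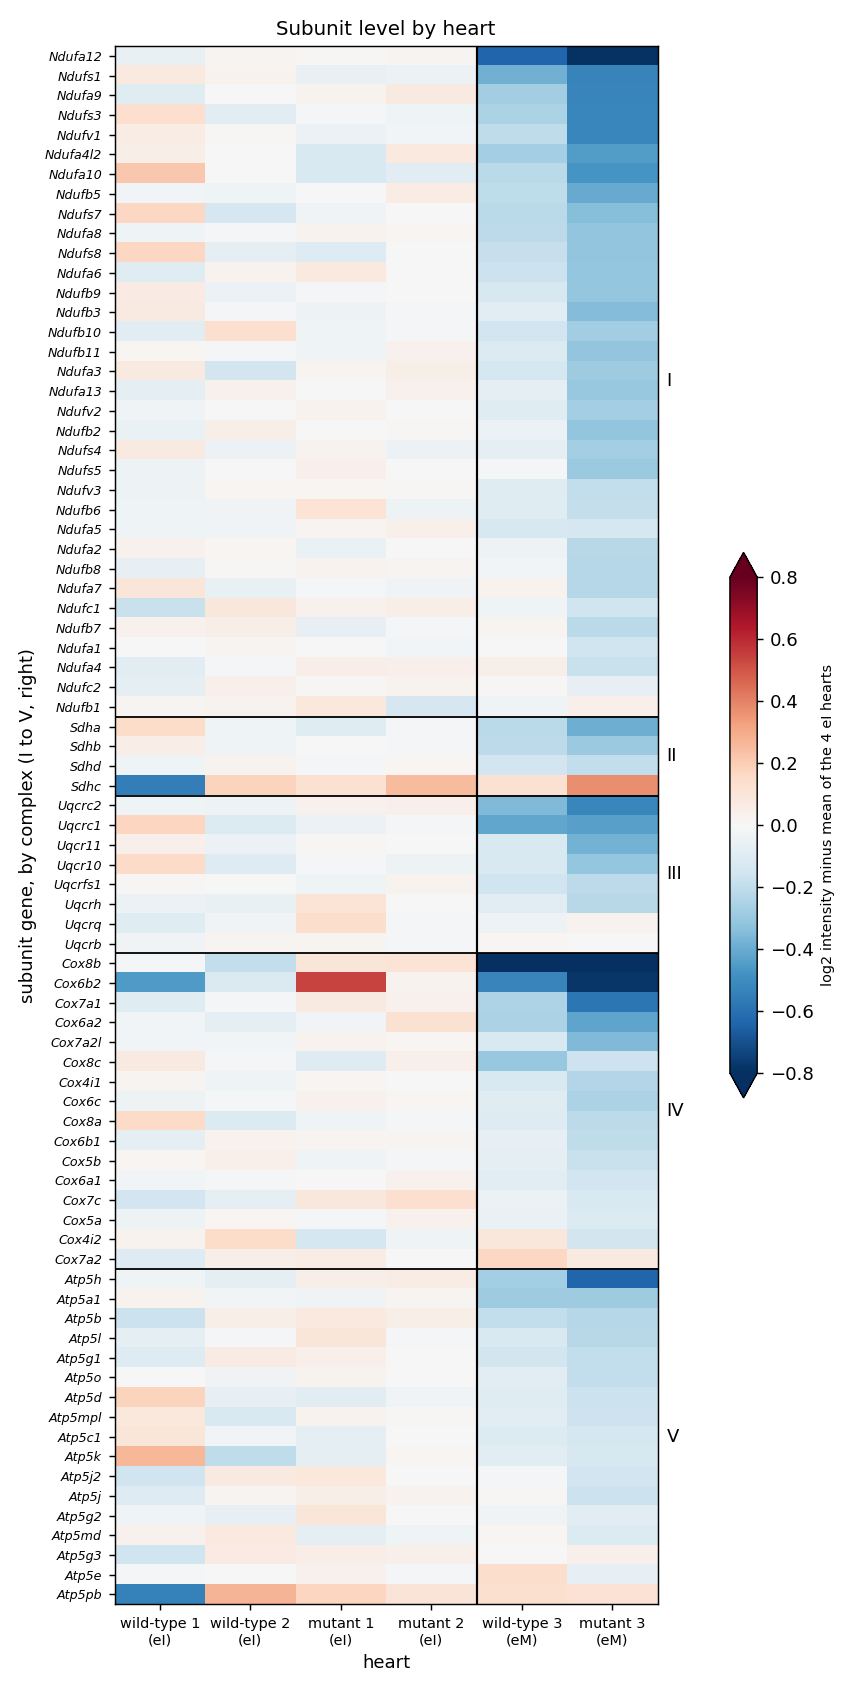
Level of each of the 79 subunits in each heart, as log2 intensity minus the mean of the 4 eI hearts, with subunits in rows by complex and hearts in columns; a thick line separates the eI hearts from the eM hearts, and values beyond the ends of the scale share the end colour. Most rows are blue in the columns of wild-type 3 and mutant 3, and deeper in mutant 3, while no block of rows separates mutant 1 and 2 from wild-type 1 and 2.

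The first comparison was that of the series, mutant against wild-type hearts. No subunit was called between genotypes. The mean level over the 79 subunits was 12.40, 12.40 and 12.28 in wild-type hearts 1 to 3 and 12.43, 12.43 and 12.14 in mutant hearts 1 to 3. The genotypes overlapped, and the lowest heart of each was its eM heart. The difference, mutant minus wild-type, was below 0 in 58 of 79 subunits (73.4%), against 48.9% of all genes. Its median was -0.03 over the subunits and 0.00 over all 13572 genes tested, and by complex it was -0.06 in I, -0.03 in II, -0.01 in III, -0.02 in IV and -0.00 in V. The median over the subunits changed sign, to 0.04, with array weights and also with the Xist level as a covariate (0.01 over all genes in both). Low Xist with high Eif2s3y was read in mutants 1 and 3 and in no wild-type heart. Genotype and sex, as far as these genes show it, are thus partly confounded in this comparison.

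By limma with Benjamini-Hochberg adjustment over all genes, 0 of 79 subunits passed an adjusted p of 0.05, against 0% of all genes; at an unadjusted p under 0.05 there were 0 subunits, against 0.936% of all genes (0.508% lower and 0.427% higher). In 5 of 79 subunits (6.33%) the hearts of the genotypes did not overlap, against 4.39% of all genes, which is close to the background. These were Cox4i2, Atp5md, Ndufa1 and Ndufb7, lower in the mutants, and Uqcrq, higher in the mutants. Ndufa1 is named only because of this pattern, after its values were seen.

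Cox4i2 had the smallest p of all subunits in this comparison (0.0604 unadjusted, adjusted p = 1.00 by limma). It encodes an isoform of complex IV subunit 4 known from lung and from low-oxygen conditions. It read 6.17, 6.29 and 6.24 in wild-type and 6.00, 6.11 and 6.00 in mutant hearts, or 6.23 ± 0.06 against 6.04 ± 0.06 (SD, n = 3 each), a difference of -0.20 (95% interval -0.41 to 0.01). All 3 mutant hearts lay below all 3 wild-type hearts. Its widely expressed counterpart Cox4i1 differed by -0.03 (-0.28 to 0.23).

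In complex I, the 3 subunits of smallest p were all accessory ones. Ndufa10 differed by -0.23 (-0.60 to 0.15), Ndufb7 by -0.13 (-0.35 to 0.09) and Ndufa7 by -0.11 (-0.35 to 0.14). Ndufb7 read 12.82, 12.84 and 12.81 in wild-type and 12.72, 12.78 and 12.58 in mutant hearts, so that the groups were apart but the lowest value was that of the eM heart. The second brightest probe sets of Ndufa10, Ndufb7 and Ndufa7 differed by -0.05, -0.07 and -0.05. For Ndufb7 the genotypes overlapped there, with mutant 1 at 12.32 and wild-type 2 and 3 at 12.26 and 12.22. Ndufa1 was nearly level except in 1 heart, at 13.06, 13.09 and 13.07 against 13.06, 13.04 and 12.90.

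In complex II, which is also the succinate dehydrogenase of the citric acid cycle, the catalytic subunits differed little. The flavoprotein Sdha differed by -0.13 (-0.47 to 0.21), the iron-sulfur subunit Sdhb by -0.04 (-0.33 to 0.26) and the membrane anchor Sdhd by -0.01 (-0.26 to 0.23). The other anchor, Sdhc, had the largest difference of any subunit tested, 0.33 (-0.16 to 0.82). It read 9.99, 10.72 and 10.66 in wild-type and 10.67, 10.79 and 10.91 in mutant hearts, and wild-type 1 alone lay far below the rest. A second Sdhc probe set read 9.72 to 9.88 in wild-type and 9.87 to 9.95 in mutant hearts, a difference of 0.13.

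In complex III, Uqcrq, a small accessory subunit, read 12.50, 12.57 and 12.56 in wild-type and 12.74, 12.58 and 12.63 in mutant hearts. The mutant hearts lay above the wild-type hearts by 0.11 (-0.10 to 0.32), with mutant 2 and wild-type 2 almost level. Uqcr10 differed by -0.10 (-0.40 to 0.21) and Uqcr11 by -0.08 (-0.39 to 0.24); both encode small accessory subunits.

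In complex IV, Cox6b2, an isoform known from testis, had the largest positive difference, 0.30 (-0.48 to 1.07). It read 7.65, 7.98 and 7.57 in wild-type and 8.64, 8.13 and 7.32 in mutant hearts, so that the mutant group held both the highest and the lowest heart. Cox7c, a small subunit without a tissue isoform, differed by 0.13 (-0.12 to 0.37). The isoforms of striated muscle did not separate the genotypes: Cox6a2 differed by 0.01 (-0.37 to 0.39), Cox7a1 by -0.04 (-0.49 to 0.41) and Cox8b by -0.27 (-1.82 to 1.28).

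In complex V, Atp5md, a small membrane subunit, read 11.63, 11.67 and 11.61 in wild-type and 11.52, 11.56 and 11.49 in mutant hearts. The difference was -0.11 (-0.31 to 0.08), with all 3 mutant hearts below the wild-type hearts. The stalk subunit Atp5d differed by -0.10 (-0.36 to 0.16). Atp5pb, of the peripheral stalk, differed by 0.18 (-0.32 to 0.68), where wild-type 1 read 12.48 and the other 5 hearts 13.13 to 13.29. A second Atp5pb probe set differed by 0.02. The isoform genes Atp5g1, Atp5g2 and Atp5g3, which encode the same mature subunit c of the rotor ring, differed by 0.01, 0.04 and 0.08.

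The genotype difference was not alike in eI and eM hearts. Within the eI hearts (2 of each genotype) the median over the subunits was 0.03, against 0.01 over all genes. There 30 of 79 subunits were lower in the mutants, against 6397 of all 13572 genes. Within the eM hearts (1 of each genotype) the median was -0.14, against -0.01 over all genes. There 74 subunits were lower, against 6971 of all genes. In 28 subunits (35.4%) the mutants were lower in both, against 21.6% of all genes. The difference of differences was below 0 in 72 subunits (91.1%), against 52.7% of all genes. Its test, the interaction term in limma, called 0 subunits and 0% of all genes at an adjusted p of 0.05; at an unadjusted p under 0.05 it had 3 subunits, against 7.12% of all genes.

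The 3 were Cox8b, Cox7a1 and Atp5h, for which the difference of differences was -1.43 (adjusted p = 0.572), -0.44 (0.695) and -0.46 (0.695) by limma. The smallest p among complex I subunits belonged to Ndufa9 (-0.35) and Ndufs5 (-0.32), in complex II to Sdhb (-0.08) and Sdha (-0.06), and in complex III to Uqcr11 (-0.26) and Uqcrc2 (-0.24); next to Atp5h in complex V stood Atp5j (-0.26), a coupling subunit. The single eM heart of each genotype limits this test. With the letters as a block, the mutant difference of Ndufa10 (-0.23) had an unadjusted p of 0.0396 and that of Cox4i2 (-0.20) one of 0.0484. These were the only 2 of 79 subunits at an unadjusted p under 0.05 in that fit, against 3.07% of all genes, and 0 passed the adjustment.

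**Figure D2:**
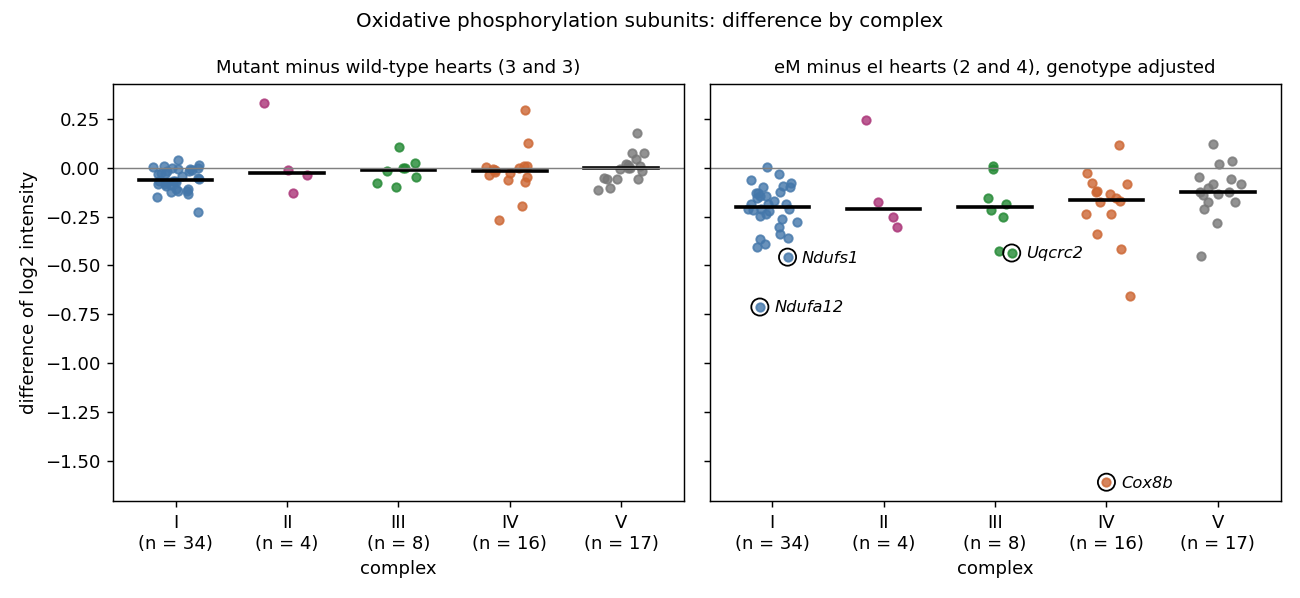
Difference of log2 intensity for each of the 79 subunits by complex, mutant minus wild-type on the left and eM minus eI with genotype as covariate on the right; each point is 1 gene, bars are medians, and rings mark the 4 genes past an adjusted p of 0.05. On the left the points lie around 0, and on the right 72 of 79 lie below 0, Cox8b lowest at -1.61.

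The second comparison, eM against eI hearts with genotype as covariate, gave lower subunit levels in the eM hearts. Over the 79 subunits the median difference was -0.17, against -0.03 over all genes, and 72 subunits (91.1%) were below 0, against 55.2% of all genes. In 50 subunits the eM and eI hearts did not overlap, against 44.6% of all genes; in 49 of these (62.0% of 79) both eM hearts were the lower ones, against 23.8% of all genes, and in 1, Cox7a2, the higher ones, against 20.8%. By limma with Benjamini-Hochberg adjustment, 4 of 79 subunits passed (5.06%), all of them lower in the eM hearts, against 10.3% of all genes, 5.82% lower and 4.47% higher. At an unadjusted p under 0.05 there were 27 subunits (34.2%), against 30.4% of all genes. The count of calls was thus no higher than the background. The share of differences below 0 was not tested and was as high in other lists read below, at 90% of 20 citric acid cycle and pyruvate dehydrogenase genes, 93.3% of 15 fibroblast and matrix markers and 100% of 10 leukocyte and 8 erythroid markers. In whole hearts, fewer cells of a type and less RNA per cell cannot be told apart.

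The 4 that passed were Cox8b, Ndufa12, Ndufs1 and Uqcrc2. Cox8b, the isoform of complex IV subunit 8 of heart and skeletal muscle, read 9.35, 9.16, 9.46 and 9.47 in wild-type 1, wild-type 2, mutant 1 and mutant 2. It read 8.36 in wild-type 3 and 7.14 in mutant 3, so that both eM hearts lay below every eI heart and mutant 3 lay far below wild-type 3. The difference was -1.61 (95% interval -2.34 to -0.88), a 3.05-fold lower intensity (adjusted p = 0.0303 by limma).

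Ndufs1 encodes the largest core subunit of complex I, which carries iron-sulfur clusters. It read 12.56, 12.50, 12.42 and 12.43 in the eI hearts in the same order, 12.09 in wild-type 3 and 11.94 in mutant 3. The eM hearts were lower by a similar amount in both genotypes, -0.44 in wild-type and -0.48 in mutant hearts. The adjusted difference was -0.46 (-0.64 to -0.27), 1.37-fold (adjusted p = 0.0243 by limma).

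Uqcrc2, a core protein of complex III, read 12.77, 12.77, 12.84 and 12.85 in the eI hearts and 12.45 and 12.29 in the eM hearts of wild-type and mutant. It differed by -0.44 (-0.65 to -0.22), 1.35-fold (adjusted p = 0.0363 by limma). A dimmer probe set of the gene differed by -0.15, and there wild-type 1, at 12.18, lay below both eM hearts. The call was lost with the mean of the gene's probe sets (-0.29, adjusted p = 0.133 by limma), with arrays centred on their medians (-0.43, 0.0516) and with no filter on dim probe sets (-0.44, 0.0547).

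Ndufa12, an accessory subunit of the peripheral arm, read 13.22, 13.30, 13.29 and 13.30 in the eI hearts, 12.64 in wild-type 3 and 12.48 in mutant 3. It had the smallest p of the subunits, with a difference of -0.71 (-0.92 to -0.50), 1.64-fold (adjusted p = 0.0151 by limma). This rests on its brightest probe set. The next 2 probe sets of the gene differed by -0.06 and 0.10, and with the mean of its probe sets the difference was -0.04 (adjusted p = 0.818).

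Each of the 4 calls depended on each mutant heart, and those of Ndufs1 and Uqcrc2 depended on wild-type 3 too. Without mutant 1, mutant 2 or mutant 3, left out one at a time, none of the 4 passed: adjusted p was 0.0597, 0.0706 and 0.162 for Ndufa12, 0.1, 0.117 and 0.213 for Ndufs1, 0.132, 0.155 and 0.27 for Uqcrc2, and 0.0856, 0.0967 and 0.15 for Cox8b. The differences themselves moved little without mutant 1 or mutant 2, to -0.70 and -0.70 for Ndufa12, -0.46 and -0.45 for Ndufs1, -0.42 and -0.42 for Uqcrc2 and -1.51 and -1.51 for Cox8b. Without mutant 3 they were -0.62, -0.44, -0.32 and -0.90. Without wild-type 3, which leaves mutant 3 as the only eM heart, the differences of Ndufs1 and Uqcrc2 were -0.48 and -0.56. With wild-type 2 left out, 7 subunits were called, against 12.3% of all genes. The calls over all genes shrank likewise, from 10.3% to 1.16%, 0.0147% and 0% without mutants 1, 2 and 3, which holds for the gene lists below too. With the Xist level as a covariate none of the subunits was called, and adjusted p was 0.0555 for Ndufa12, 0.075 for Cox8b, 0.094 for Ndufs1 and 0.122 for Uqcrc2, while the differences were -0.70, -1.53, -0.45 and -0.42 and the median over the subunits was -0.17.

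Within complex I, 33 of 34 subunits were below 0, with a median of -0.20 and 2 called. The 6 core subunits encoded in the nucleus and read here had a median of -0.32, and the 26 accessory subunits had one of -0.18. On the probe sets used, both eM hearts lay below all eI hearts in each of the 6, against 23.8% of all genes. The second brightest probe sets of Ndufv2, Ndufs7 and Ndufs8 differed by -0.05, -0.16 and -0.18. In these, wild-type 3 lay within the eI range. The second brightest one of Ndufv1 differed by -0.46 without overlap. Ndufv1, which binds NADH, read 12.77, 12.71, 12.66 and 12.68 in the eI hearts and 12.50 and 12.19 in the eM hearts. Its difference was -0.36 (adjusted p = 0.0569 by limma), and its 3 probe sets gave -0.36, -0.36 and -0.46. Ndufa9, at the junction with the membrane arm, differed by -0.40 (adjusted p = 0.0624).

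Ndufa4 and Ndufa4l2 carry complex I names, although Ndufa4 protein is now placed in complex IV and Ndufa4l2 is known as a hypoxia-induced relative. Ndufa4 read 13.29, 13.37, 13.43 and 13.42 in the eI hearts and 13.43 and 13.20 in the eM hearts, a difference of -0.06. Ndufa4l2 read 7.53, 7.47, 7.35 and 7.56 against 7.20 and 7.03, a difference of -0.36 (adjusted p = 0.0636 by limma). The eM hearts overlapped with the eI hearts for Ndufa4 and lay below them for Ndufa4l2.

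In complex II, 3 of 4 subunits were below 0 and none was called. Sdha differed by -0.30 (adjusted p = 0.0844 by limma), Sdhb by -0.25 (0.0945) and Sdhd by -0.18 (0.185), each with both eM hearts below all eI hearts. The next Sdha probe set differed by -0.11, and there wild-type 3, at 12.36, lay above mutant 1, at 12.30. A much dimmer probe set of Sdhd differed by -0.01. Sdhc was higher in the eM hearts, at 10.66 and 10.91 against 9.99 to 10.79, a difference of 0.25 (0.444) with overlap. Its second probe set differed by -0.10, the opposite sign.

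In complex III, 7 of 8 subunits were below 0, with a median of -0.20. Next to Uqcrc2 stood its partner core protein Uqcrc1, at 13.60, 13.32, 13.38 and 13.42 in the eI hearts and 13.02 and 12.99 in the eM hearts, a difference of -0.43 (adjusted p = 0.0512 by limma). Uqcr11 differed by -0.25 (0.136), the Rieske iron-sulfur protein Uqcrfs1 by -0.18 (0.167) and Uqcr10 by -0.21 (0.213). Uqcrb (0.01) and Uqcrq (-0.01) were level between eM and eI hearts, with intervals of -0.18 to 0.20 and -0.21 to 0.20.

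In complex V, 14 of 17 subunits were below 0, with a median of -0.12, and none was called. Atp5h, of the peripheral stalk, read 13.56, 13.52, 13.64 and 13.65 in the eI hearts, 13.32 in wild-type 3 and 12.96 in mutant 3, a difference of -0.45 (adjusted p = 0.0645 by limma). The catalytic head subunits alpha and beta, Atp5a1 and Atp5b, differed by -0.28 (0.0676) and -0.21 (0.203). The next probe sets of Atp5a1 and Atp5h differed by -0.12 and -0.21. In that of Atp5h, wild-type 1, at 12.83, lay below wild-type 3, at 13.06. Atp5l, a subunit of the membrane part, differed by -0.17 (0.247). Of the genes of subunit c, Atp5g1 differed by -0.17 (0.241), Atp5g2 by -0.06 and Atp5g3 by 0.02.

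Complex IV held the widest range, from -1.61 for Cox8b to 0.12 for Cox7a2, with 15 of 16 subunits below 0 and a median of -0.16. After Cox8b, the smallest p belonged to the striated muscle isoforms Cox7a1 and Cox6a2. Cox7a1 read 10.50, 10.58, 10.66 and 10.63 in the eI hearts and 10.34 and 10.01 in the eM hearts, a difference of -0.41 (adjusted p = 0.0763 by limma). Cox6a2 read 12.27, 12.22, 12.27 and 12.41 against 12.04 and 11.87, a difference of -0.34 (0.0814). In both genes the eM hearts lay below all eI hearts.

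The widely expressed partners differed less. Cox8a, at 12.89 to 13.16 in the eI hearts and 12.90 and 12.79 in the eM hearts, differed by -0.16 with overlap. Cox6a1 read 14.49 to 14.54 in the eI hearts and 14.42 and 14.36 in the eM hearts, a difference of -0.12. Cox7a2 read 13.73 to 13.89 against 14.00 and 13.91, a difference of 0.12, and was the only subunit with both eM hearts above all eI hearts.

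Of the other isoforms, the testis forms Cox6b2 and Cox8c differed by -0.66 (adjusted p = 0.125 by limma) and -0.24 (0.154), against -0.13 for the common Cox6b1. A second Cox8c probe set differed by 0.02, with hearts from 6.18 to 7.83. Cox4i1 and Cox4i2 differed by -0.18 and -0.03. Cox7a2l, which joins complexes III and IV in supercomplexes and is no isoform of the enzyme itself, differed by -0.24 (0.151).

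**Figure D3:**
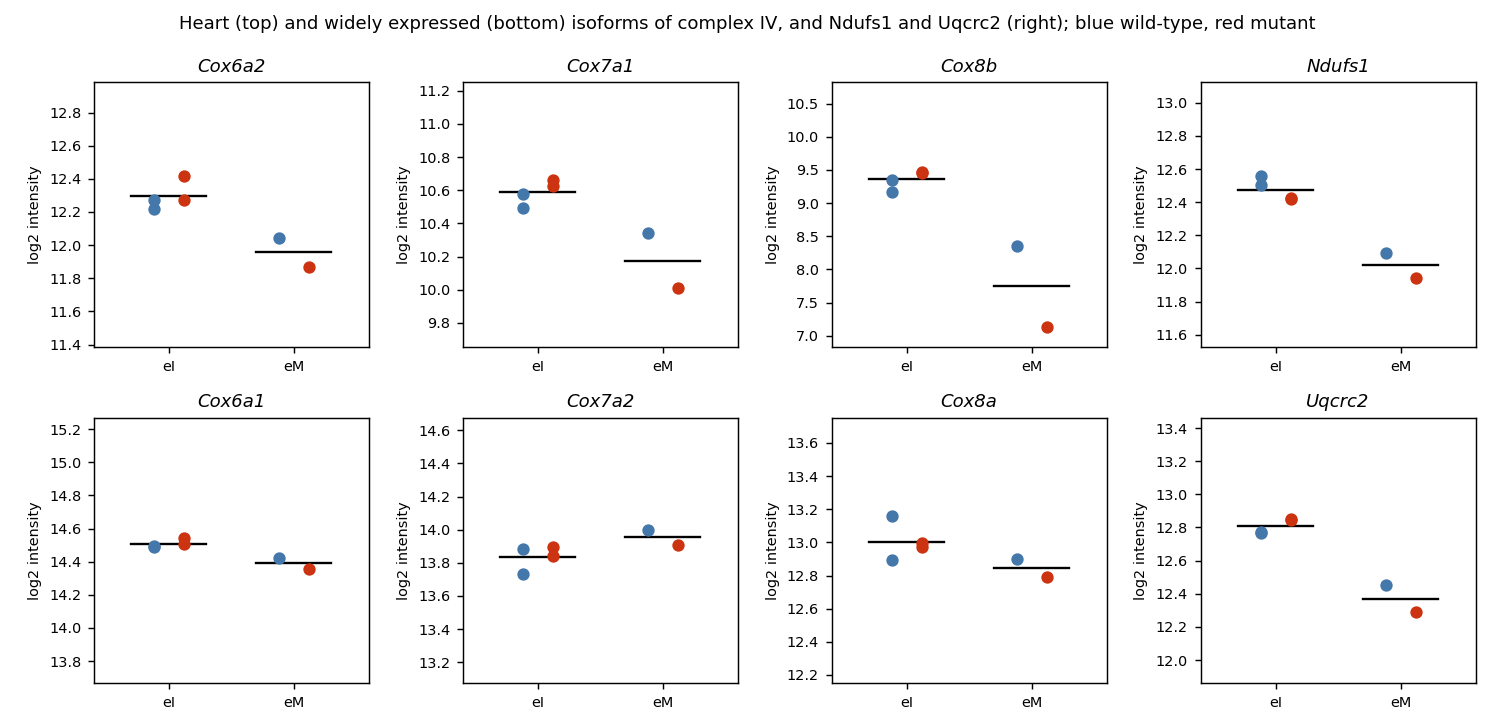
Log2 intensity by heart for the striated muscle isoforms Cox6a2, Cox7a1 and Cox8b (top), their widely expressed partners Cox6a1, Cox7a2 and Cox8a (bottom), and Ndufs1 and Uqcrc2 (right); points are hearts, blue wild-type and red mutant, some points coincide, bars are means of the 4 eI or 2 eM hearts, and the Cox8b panel spans a wider range. The eM hearts lie below the eI hearts in every panel but those of Cox7a2, where they lie above, and Cox8a, where they overlap.

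The balance of an isoform pair was taken within each array as the muscle isoform minus the common one, and only its difference between groups is read. The Cox8b and Cox8a balance was lower in eM than in eI hearts by 1.45 on the log2 scale (difference -1.45), that of Cox7a1 and Cox7a2 differed by -0.53, and that of Cox6a2 and Cox6a1 by -0.22. Among pairs that do not set muscle against other tissues, Ndufa4l2 and Ndufa4 differed by -0.30, Atp5g1 and Atp5g3 by -0.19 and Cox4i2 and Cox4i1 by 0.15. The eM hearts lay outside the eI range in 5 of the 6 pairs, the exception being Cox4i2 and Cox4i1. With the mean of all probe sets of a gene, which adds a dim probe set of Atp5g1, the Atp5g1 and Atp5g3 balance turned to 0.09 (two-sided exact permutation p = 0.778), and that of Cox6a2 and Cox6a1 was -0.11.

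Exchanging the letters within genotypes allows 9 arrangements, so that the smallest p of the two-sided exact permutation test is 0.111, which those 5 pairs reached (0.133 after adjustment over 6 pairs); the design cannot reach 0.05. For mutant minus wild-type, the balances differed by -0.20 for Cox8b and Cox8a, -0.05 for Cox7a1 and Cox7a2, 0.01 for Cox6a2 and Cox6a1 and -0.17 for Cox4i2 and Cox4i1. The two-sided exact permutation p was 1, 1, 1 and 0.2, where 0.1 is the smallest possible. Without mutant 3 the Cox8b and Cox8a balance differed by -0.77 between eM and eI hearts, and without wild-type 3 by -2.14.

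The eM minus eI difference was seen in each genotype on its own hearts, wild-type 3 against wild-type 1 and 2, and mutant 3 against mutant 1 and 2, which share no sample. The median over the subunits was -0.10 in wild-type and -0.25 in mutant hearts, against -0.02 and -0.04 over all genes. Below 0 were 61 and 75 of 79 subunits, against 7178 and 7519 of all 13572 genes. Across the 79 genes, which are not independent replicates, the differences correlated at Pearson's r = 0.78, against 0.70 across all genes, and had the same sign in 63 (79.7%), against 73.5% of all genes. Cox8b differed by -0.90 in wild-type and -2.32 in mutant hearts, and Cox6b2 by -0.25 and -1.07. Ndufa12 (-0.62 and -0.81) and Uqcrc1 (-0.44 and -0.41) were more alike.

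**Figure D4:**
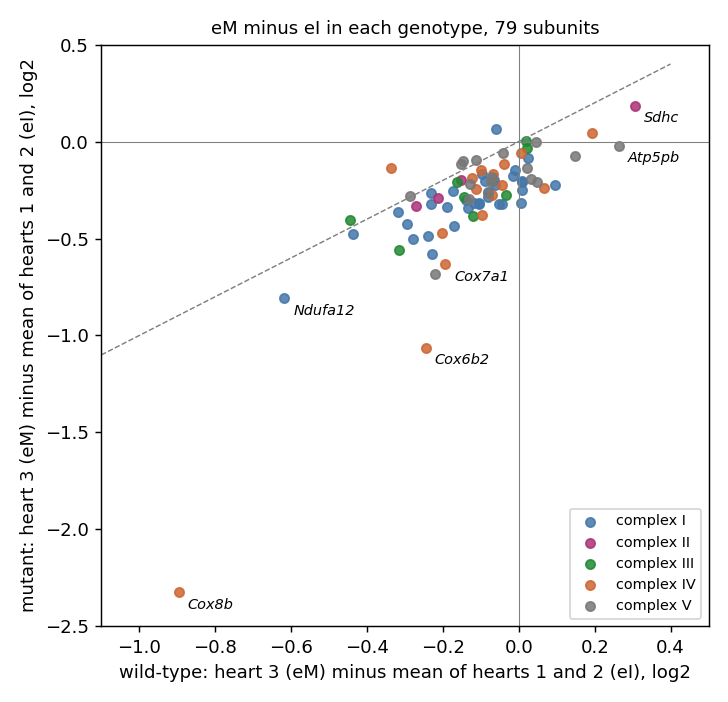
The eM minus eI difference of each of the 79 subunits within wild-type hearts (horizontal) and within mutant hearts (vertical), in log2 units and coloured by complex; the dashed line marks equal differences. Most points lie below the line and below 0 on the vertical axis, and Cox8b lies farthest out at -0.90 and -2.32.

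Promoter letters were read for what the subunits share apart from their names. RefSeq promoters of the assembly GRCm38.p6, from 250 bases before to 50 after each start, matched 66 of the 81 genes. On either strand, GCGCNTGCG, the core of sites of the mitochondrial regulator NRF1, was found in 22 of these 66 genes (33.3%), against 11.7% of genes on the arrays and 7.12% of all genes in the table. AANATGGCG, the letters of YY1, was found in 9 (13.6%), against 4.27% and 2.76%. TCAAGGTCA, for estrogen-related receptors, was found in 2, Atp5g3 and Sdhd (3.03%), against 0.404% and 0.466%.

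The remaining motifs were nearer to or below the other genes: CCGGAAGT, for GABPA and other ETS factors, stood in 5 (7.58%, against 6.65% of array genes), CCAAT, for NFY, in 28 (42.4%, against 42.0%), and GGGCGG, for SP and KLF factors, in 28 (42.4%, against 57.5%). None of the 6 motifs contains another. A match is a run of letters and not a bound site. The 21 tested subunits with NRF1 letters and the 43 without had the same median eM minus eI difference, -0.17, with 20 and 39 below 0.

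The 250 bases before the start are shown for Cox8b and Cox7a1, the muscle isoforms with the largest differences that had an entry, for the common isoforms Cox8a and Cox6a1, and for Ndufa12, as a subunit with NRF1 letters. Capitals mark matches to the 6 motifs; all are written 5′ to 3′ on the gene's strand. 
Cox8b (chr7:140900447-140900696, minus strand): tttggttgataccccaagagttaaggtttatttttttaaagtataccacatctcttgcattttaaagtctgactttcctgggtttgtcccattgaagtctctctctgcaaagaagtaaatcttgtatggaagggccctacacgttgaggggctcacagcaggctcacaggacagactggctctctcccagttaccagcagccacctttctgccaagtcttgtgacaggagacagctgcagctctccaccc
Cox7a1 (chr7:30183921-30184170, plus strand): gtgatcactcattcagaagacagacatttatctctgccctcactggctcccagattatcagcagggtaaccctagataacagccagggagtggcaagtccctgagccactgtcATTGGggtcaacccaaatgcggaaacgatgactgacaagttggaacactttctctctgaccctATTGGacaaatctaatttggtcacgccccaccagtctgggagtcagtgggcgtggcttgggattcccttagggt
Cox8a (chr19:7217617-7217866, minus strand): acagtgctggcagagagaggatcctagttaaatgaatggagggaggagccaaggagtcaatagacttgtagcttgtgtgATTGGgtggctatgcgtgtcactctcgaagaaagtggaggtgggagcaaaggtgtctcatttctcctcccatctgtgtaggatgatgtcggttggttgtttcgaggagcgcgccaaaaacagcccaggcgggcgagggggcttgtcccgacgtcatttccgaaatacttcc
Cox6a1 (chr5:115348959-115349208, minus strand): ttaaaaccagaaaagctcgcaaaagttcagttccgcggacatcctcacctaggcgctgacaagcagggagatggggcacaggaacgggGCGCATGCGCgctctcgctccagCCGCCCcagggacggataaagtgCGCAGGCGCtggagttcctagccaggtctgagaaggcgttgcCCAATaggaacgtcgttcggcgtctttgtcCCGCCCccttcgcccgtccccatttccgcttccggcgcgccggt
Ndufa12 (chr10:94198785-94199034, plus strand): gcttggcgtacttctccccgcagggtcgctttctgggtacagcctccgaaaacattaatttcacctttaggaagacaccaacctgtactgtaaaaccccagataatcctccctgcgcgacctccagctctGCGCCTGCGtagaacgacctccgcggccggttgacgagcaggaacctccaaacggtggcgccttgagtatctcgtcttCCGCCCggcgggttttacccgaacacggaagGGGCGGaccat

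The Cox8b stretch holds no match to any of the 6 motifs, and that of Cox7a1 holds 2 NFY matches. Cox8a holds 1 NFY match. Cox6a1 holds 3 NRF1 matches, of which 2 overlap on opposite strands, 1 NFY match and 2 SP matches, and Ndufa12 holds 1 NRF1 and 2 SP matches. The muscle isoforms shown thus lack NRF1 letters in this window, as does Cox8a.

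Other genes of mitochondrial energy metabolism were read from lists of the pathway, and none was called between genotypes. Between eM and eI hearts 10.3% of all genes were called, 5.82% lower and 4.47% higher, and the lists are given beside that share. Of 20 citric acid cycle and pyruvate dehydrogenase genes, 6 fell (30%) and none rose, with a median of -0.24. Isocitrate dehydrogenase Idh2 fell by 0.75 on the log2 scale (13.17, 13.02, 13.08 and 13.19 in the eI hearts, 12.47 and 12.26 in the eM hearts; adjusted p = 0.0171 by limma). Mdh1, which is in the list although it encodes the cytosolic malate dehydrogenase, fell by 0.61. The pyruvate dehydrogenase component Pdhx fell by 0.55.

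Of 53 assembly factors and electron carriers, 5 fell (9.43%) and none rose, a share called near that of all genes, with a median of -0.12. The smallest p belonged to Tmem126b (-0.72) and Foxred1 (-0.46), assembly factors of complex I, and Atpaf2 (-0.54), an assembly factor of complex V. Of 15 carriers and genes of ATP export, 5 fell (33.3%), with a median of -0.15, among them mitochondrial creatine kinase Ckmt2 (-1.23), the carrier Slc25a11 (-0.58) and muscle creatine kinase Ckm (-1.18). Of 75 mitochondrial ribosome genes, 2 fell (2.67%, below the share of all genes), Mrpl9 (-0.57) and Mrps24 (-0.52), with a median of -0.08; Mrps34 differed by -0.34 (adjusted p = 0.0501 by limma).

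Regulators of mitochondrial biogenesis did not share a direction. Of 24, 1 passed the test (4.17%), the coactivator gene Ppargc1b, which rose by 0.53, and the median was 0.00. Nrf1 differed by 0.50 (adjusted p = 0.0531 by limma) and Ppargc1a by -0.43 (0.0546). Nrf1 read 7.98, 7.74, 7.79 and 7.74 in the eI hearts and 8.17 and 8.45 in the eM hearts, and Ppargc1a read 9.10, 9.13, 9.16 and 9.30 against 8.85 and 8.62. Both eM hearts were thus above the eI hearts for the one gene and below them for the other.

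**Figure D5:**
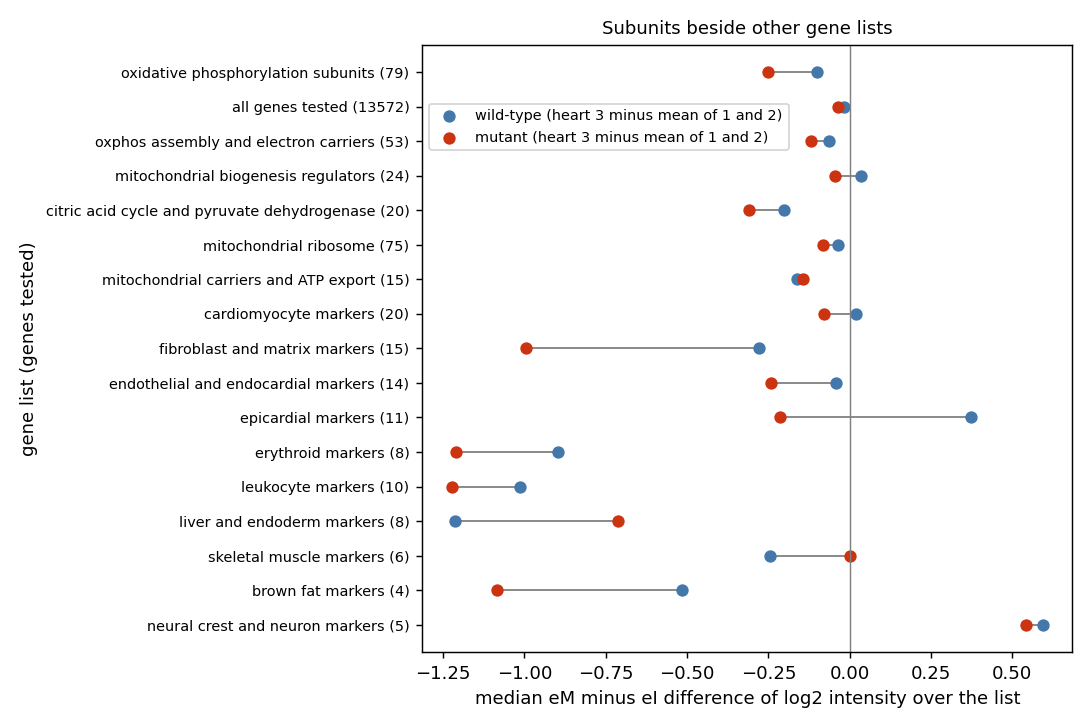
Median eM minus eI difference over each gene list, within wild-type hearts (blue) and within mutant hearts (red), in log2 units, with the number of genes tested in brackets. The 79 subunits lie at -0.10 and -0.25, all genes near 0, cardiomyocyte markers at 0.02 and -0.08, and erythroid and leukocyte markers lie far to the left in both genotypes, at -0.90 and -1.01 in wild-type and -1.21 and -1.22 in mutant hearts.

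Markers of other cell types moved with the letters beside the subunits. Of 20 cardiomyocyte markers, 5 were called (25%, against 10.3% of all genes): 3 rose (Ttn 1.64, Ryr2 0.76 and Myh6 0.67) and 2 fell (Pln -0.75 and Tnni3k -0.74); the summed level was 18.02 to 18.09 in the eI hearts and 18.12 and 18.06 in the eM hearts. The summed level of the 79 subunits was 19.21 to 19.23 in the eI hearts, 19.11 in wild-type 3 and 18.99 in mutant 3. Of 15 fibroblast and matrix markers 3 fell (20%; Lum -3.42, Mgp -3.39 and Col1a2 -1.12), with summed levels of 14.52 to 14.84 in eI hearts and 14.31 and 13.58 in eM hearts. Over the 15 fibroblast and matrix markers the median was -0.53, with 14 below 0 and a range from -3.42 to 0.33. Over the 20 cardiomyocyte markers it was -0.03, with 12 below 0 and a range from -0.75 to 1.64.

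Of 10 leukocyte markers 7 fell (70%; Csf1r -1.64, C1qc -1.22 and Tyrobp -1.20 among them), with summed levels of 11.08 to 11.26 and 10.51 and 10.11. Of 8 erythroid markers 5 fell (62.5%; Alas2 -1.96, Epor -0.53 and the embryonic globin Hba-x among them), at 15.45 to 16.08 against 15.18 and 15.09. Of 14 endothelial markers 3 fell (21.4%), Emcn (-1.18), Esam (-0.71) and Robo4 (-0.70), at 13.55 to 13.65 against 13.40 and 13.32. Of 11 epicardial markers 3 rose (27.3%), Lrrn4 (1.15), Wt1 (0.94) and Tbx18 (0.69), and Msln fell by 0.67, at 12.05 to 12.61 against 12.69 in both eM hearts.

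Muscle and fat other than heart could also hold such isoforms. Of 6 skeletal muscle markers tested, 3 were called (50%): Actn3 rose by 0.72 and Ckm and Tnni2 (-0.59) fell, and Myog, Myf5 and 4 others were too dim to test; the sum was 13.20 to 13.30 against 13.45 and 13.58. Of 4 brown fat markers 2 were called (50%): Fabp4 (-2.17) and Dio2 (-1.05) fell, and Ucp1, which defines that tissue, was dim in these hearts. Of 8 liver markers 1 was called (12.5%), Afp, which fell by 5.83, and of 5 neural crest and neuron markers 1 (20%), Erbb3, which rose by 0.72. The part of these lists, of the actin control probes and of sex in the lower subunit levels of the eM hearts was not tested, beyond the fit with Xist given above.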

How the data were processed

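RNA of 6 mouse hearts was labelled with biotin and hybridised to 1 array each. The deposited values are log2 intensities normalized by the authors with RMA, the robust multi-array average, a step named in the submitters' processing notes without a version. No scanner files were used here, so detection above background is not known. Of 45101 probe sets, 64 controls were left out; 34945 named 1 gene, 932 named several and 9160 were unnamed here. Gene IDs were set against the RefSeq table of GRCm38.p6, where 34741 matched and 0 symbols changed. Of 18193 genes, 13572 passed the filter and were tested with two-sided tests of limma 3.58.1 (R 4.3.3; eBayes after lmFit), adjusted by Benjamini-Hochberg over all genes at a threshold of 0.05; the fit was tested on simulated data. Intervals are 95% intervals of that fit. Mutant minus wild-type had no covariate, eM minus eI had genotype.

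Each array was taken as 1 animal, since the design text counts 6 mice; 3 arrays a group limit the precision. Deviations from the group means correlated at 0.18, 0.30 and 0.70 between hearts of the same number in the titles, so by the rule used the numbers pair the hearts, on no other ground than their titles; the pair numbered 3 is the eM pair. The crossed numbers of the eI hearts correlated more strongly, at 0.46 (wild-type 1, mutant 2) and 0.43 (wild-type 2, mutant 1). All values come from fits without this pairing, which was run as an alternative. The members and the 15 lists (322 genes, 307 with a probe set) were chosen with earlier results of these data known. Named are all tissue isoforms, all Sdh genes, dim members, in each complex up to 3 genes of smallest p by genotype, 5 by letters and 2 by interaction, and up to 3 per list; other names were chosen after their values were seen. Of the lists, gene names by genotype are left out, as none was called. Python 3.11.15 with matplotlib 3.10.9 made the figures.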

Additional observations from a re-analysis of the deposited data

Results flagged for a closer look

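Among the 4 eI hearts, 6 of the subunits had 1 heart set apart from the other 3 by more than Dixon's 95% limit, which chance alone does in about 1 in 20 genes. Wild-type 1 was the low heart in 5 of them. It read Sdhc at 9.99, where the nearest heart read 10.67, Atp5b at 13.61 (nearest 13.83), Atp5g3 at 13.89 (14.09), Cox6b1 at 13.73 (13.84) and Ndufv3 at 12.97 (13.02). Mutant 1 was the high heart for Ndufb6, at 12.42 (12.29). The upper quartile of the wild-type 1 array was 8.05, against 8.11 to 8.17 on the other arrays. None of the 6 genes was called in either comparison. Genes read on the same array are not independent, so the 5 with wild-type 1 low are not separate events.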

How the results depend on the processing

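Between genotypes 0 subunits were called under every alternative run, with the replicate number as a block too (median -0.03 with that block; -0.08 to 0.05 leaving out 1 heart). A block by number could not be fitted to eM minus eI, since number 3 is the eM pair. Of eM minus eI, the count of 4 called subunits became 12 with the lowest 60% of probe set means left out, 7 with the mean of a gene's probe sets, 16 with trend and robust eBayes, 8 with array weights, 10 with no genotype covariate, 18 at a threshold of 0.1, 20 in mutant hearts alone (26.3% of all genes), and 0 with the Xist level as covariate, at 0.01 and in wild-type hearts alone. Leaving out 1 heart gave 0 to 7. The median was -0.0988 in wild-type hearts alone and -0.2522 in mutant hearts alone, -0.25 to -0.10 leaving out 1 heart. With the mean of probe sets the balance of Cox6a2 and Cox6a1 was -0.1148, and that of Atp5g1 and Atp5g3 0.0925 (eM minus eI) and -0.1906 (mutant minus wild-type). Leaving out 1 heart gave balances, eM minus eI, of -2.14 to -0.77 for Cox8b and Cox8a, -0.68 to -0.39 for Cox7a1 and Cox7a2 and -0.30 to -0.13 for Cox6a2 and Cox6a1. In 150 bases before the start, NRF1 letters stood in 19.7% of the members, against 8.05% of genes on the arrays. YY1 letters stood there in 3.03% of the members (2 genes), against 1.29%. With the probe set of largest interquartile range Dlst read 0.5738, and in mutant hearts alone Upk3b read -0.4401 (eM minus eI); neither passed in the main test. The cause of these shifts was not tested. A run chosen after seeing the data took every probe set as its own row. It called 6 of 153 subunit probe sets, in 5 subunits, against 11.7% of all probe sets tested. Of the 153, 132 were below 0. Signal over background is unknown.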

Other observations

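A gene of complex I encoded in mitochondrial DNA, ND5, is on the arrays but outside the symbol rule; it was chosen after its values were seen. It read 11.91, 12.02, 12.25 and 12.14 in wild-type 1, wild-type 2, mutant 1 and mutant 2, and 12.31 and 12.36 in wild-type 3 and mutant 3. Both eM hearts lay above all 4 eI hearts, a pattern that 20.8% of all genes had. Of the 34 nuclear genes with complex I names tested, Ndufa4 and Ndufa4l2 among them, 21 had both eM hearts below all 4 eI hearts. None of them had both above. Over all genes, 23.8% had both eM hearts below. The difference, eM minus eI, was 0.25 (adjusted p = 0.128 by limma), which did not pass the test, and mutant minus wild-type was 0.17 (adjusted p = 1.00).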
